A study of Rattus norvegicus with 6 samples.

Results

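Toll-like receptors and their adaptors were followed in the wall of the rat aorta through the first day of culture. The set holds 10 listed genes, among them the receptors Tlr2, Tlr3, Tlr4 and Tlr7 and the coreceptor proteins Cd14 and Ly96. The others are the adaptors Myd88 and Ticam2 and the Irak family members Irak2 and Irak3. A gene was taken where a row of the array's value table was annotated to that symbol and no other, which held for 8 of the 10, among 14324 genes measured in all. Each of the 8 had a single row. The rows of Irak2 and Ticam2 are annotated to a second gene as well, Tatdn2 and Tmed7, so no value is given for either.

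RNA came from aortas of male Fisher 344 rats aged 1 to 2 months. The day 1 group was aortic rings kept for 1 day in collagen gel in serum-free EBM medium, and the day 0 group was rings taken fresh from the animal. Each group had 3 arrays, called biological replicates in the labels, and each array carried RNA pooled from 4 to 6 rings or cultures. Whether pools shared animals is not stated, so the p-values cover no more than the scatter of these pools. No inhibitor, ligand or mutant was part of the design, and every array held whole wall. In such bulk RNA, more cells of a type and more RNA per cell cannot be told apart.

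Toll-like receptors are membrane proteins that bind microbial molecules and, as reported, molecules released from damaged tissue. Tlr4 recognises bacterial lipopolysaccharide together with Ly96, its extracellular partner protein, while Lbp and Cd14 hand the lipid over. Tlr2 recognises lipoproteins at the cell surface with Tlr1 or Tlr6, and Tlr7 and Tlr3 recognise single-stranded and double-stranded RNA in endosomes. Most of these receptors signal through the adaptor Myd88 and Irak kinases to NF-kappaB. Tlr3 instead uses the adaptor Ticam1, known as TRIF, which leads to interferon genes, and Tlr4 reaches Ticam1 through Ticam2. Irak3, also called IRAK-M, is a family member known mainly as a brake. Macrophages are the classical users of these receptors, but endothelial cells, fibroblasts and smooth muscle cells express several of them.

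Promoters of the genes were searched for motifs of inflammatory transcription factors, and some are shown with their matches. The windows run from 250 bases before to 50 bases after the transcription start in RefSeq annotation of GRCr8, and 7 of the 8 genes had an entry (Ly96 had none). Letters were searched on both strands for the NF-kappaB consensus, for GAAA, any 2 bases and GAAA again (the interferon-stimulated response element, ISRE), for TTCNNNGAA (the STAT site known as GAS) and for TGANTCA (the AP-1 site). Capitals mark the matched letters, and overlapping matches run together. Tlr2, Myd88 and Irak3 are shown because they held matches and rose, and Tlr3 because it is the receptor that fell. The windows of Tlr4, Tlr7 and Cd14, which also rose, held no match and are not shown. Whether matches go with the direction of change was not tested.
Tlr2, chr2:171504508-171504807, minus strand: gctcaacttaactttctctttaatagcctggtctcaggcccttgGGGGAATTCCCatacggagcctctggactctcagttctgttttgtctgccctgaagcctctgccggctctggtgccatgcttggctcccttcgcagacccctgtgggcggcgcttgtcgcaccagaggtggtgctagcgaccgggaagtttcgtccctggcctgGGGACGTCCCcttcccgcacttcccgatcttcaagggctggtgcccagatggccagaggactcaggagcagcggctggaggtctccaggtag
Myd88, chr8:127956181-127956480, minus strand: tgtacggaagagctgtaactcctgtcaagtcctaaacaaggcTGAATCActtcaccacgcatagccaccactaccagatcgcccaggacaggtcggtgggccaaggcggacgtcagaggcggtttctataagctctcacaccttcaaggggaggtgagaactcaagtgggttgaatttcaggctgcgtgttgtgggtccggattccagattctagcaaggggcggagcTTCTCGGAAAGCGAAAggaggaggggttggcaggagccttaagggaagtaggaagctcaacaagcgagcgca
Irak3, chr7:57598582-57598881, minus strand: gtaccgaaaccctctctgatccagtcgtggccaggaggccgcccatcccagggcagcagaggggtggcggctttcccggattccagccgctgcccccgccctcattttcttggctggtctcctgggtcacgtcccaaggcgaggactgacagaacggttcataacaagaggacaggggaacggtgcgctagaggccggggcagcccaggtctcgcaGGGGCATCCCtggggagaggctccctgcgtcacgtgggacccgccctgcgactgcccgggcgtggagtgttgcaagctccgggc
Tlr3, chr16:53554666-53554965, plus strand: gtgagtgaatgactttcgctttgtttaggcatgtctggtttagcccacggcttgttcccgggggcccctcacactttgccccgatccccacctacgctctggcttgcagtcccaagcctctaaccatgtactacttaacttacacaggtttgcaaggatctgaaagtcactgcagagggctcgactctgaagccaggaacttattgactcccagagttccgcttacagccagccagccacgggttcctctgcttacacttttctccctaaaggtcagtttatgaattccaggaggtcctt

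The Tlr2 window held the NF-kappaB consensus at bases 206 to 197 and 205 to 196 before the start, which overlap, and again at bases 42 to 33. The Irak3 window held it at bases 34 to 25. The Myd88 window had no such match, but it held a GAS match at bases 22 to 14 that overlaps an ISRE match at bases 16 to 7, and an AP-1 match at bases 208 to 202. The windows of Tlr3, Tlr4, Tlr7 and Cd14 held none of these letters. Among 33469 windows of the same length in the rat annotation, 7.51% held the NF-kappaB consensus, against 2 of the 7 here. The ISRE letters stood in 3.92%, the GAS letters in 8.87% and the AP-1 letters in 7.33% of all windows, each against 1 of the 7 here. A match describes letters in the window and not a bound site.

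After 1 day of culture 7 of the 8 genes had risen and 1, Tlr3, had fallen. The rise was at least 2-fold for Ly96, Myd88, Tlr2, Cd14 and Tlr4, and smaller for Irak3 and Tlr7. Testing was by limma on the log2 values, and p-values were adjusted by Benjamini-Hochberg across the 14324 genes, with calls made at 0.05. The day changed much of the transcriptome, since 48.3% of all genes passed this threshold, with 27.6% higher and 20.7% lower on day 1. A rise past the threshold of at least 2-fold was less common, at 4.13% of genes, against 5 of these 8. A fall of that size was seen in 4.11% of genes and in 0 of the 8. The median log2 change was 1.55 over the 8 genes and -0.01 over all genes. The genes were chosen with earlier results of these arrays known, so these counts describe them and do not test the set. Values below are log2 expression values as deposited, and they are compared between days and not between genes, since probes differ in brightness.

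**Figure D1:**
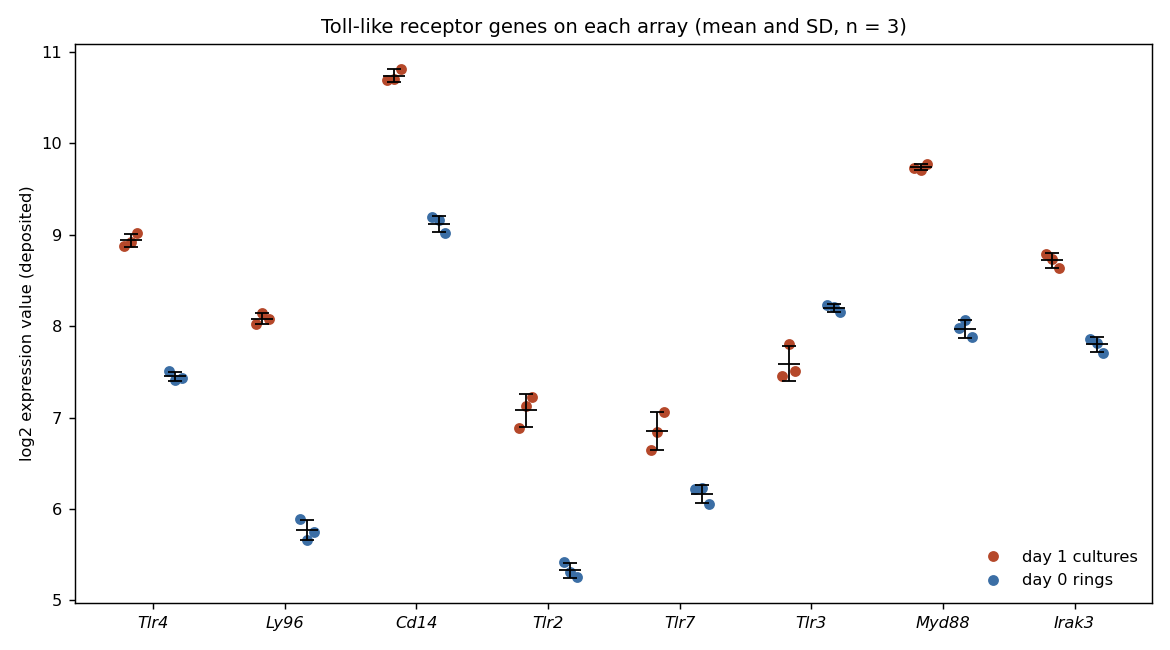
Log2 expression value of the 8 genes on each array, with day 1 cultures (red) left of day 0 rings (blue) for every gene. Points are arrays, the long dash is the mean and bars are SD (n = 3). The day 1 points lie above all day 0 points for 7 genes and below them for Tlr3.

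The genes of the lipopolysaccharide receptor rose together, with Ly96 rising furthest. Ly96 stood at 8.02, 8.14 and 8.08 on the day 1 arrays, against 5.89, 5.66 and 5.75 on the day 0 arrays. The lowest day 1 array lay 2.13 log2 units above the highest day 0 array, the widest gap among the 8 genes. Its change was 2.31 ± 0.08 (log2, SE, n = 3 per group), a 4.97-fold rise (limma adjusted p = 2.88e-07). Of all genes measured, 99.5% had a lower change.

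Tlr4, the signalling receptor of the complex, had 8.88, 8.92 and 9.02 on day 1, against 7.51, 7.41 and 7.43 on day 0. The arrays of each day lay within 0.13 and 0.10 log2 units of each other, and the days did not overlap. The change was 1.49 ± 0.06 (SE), or 2.81-fold (adjusted p = 9.94e-07). Cd14, the glycolipid-anchored coreceptor that also serves Tlr2, had 10.69, 10.71 and 10.81 on day 1, against 9.19, 9.16 and 9.02 on day 0. All day 1 arrays were higher, by 1.61 ± 0.07 (SE), or 3.06-fold (adjusted p = 1.10e-06).

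The changes of the partners of the complex were also set against each other. On each array the log2 value of Ly96 was set against that of Tlr4, and this difference averaged -0.86 ± 0.08 on day 1 and -1.68 ± 0.07 on day 0 (SD, n = 3 each). The change of Ly96 was 0.82 ± 0.06 log2 units (SE) above that of Tlr4. For Cd14 against Tlr4 the difference averaged 1.80 ± 0.01 on day 1 and 1.67 ± 0.08 on day 0, a shift of 0.13 ± 0.05 (SE). In both pairs the days did not overlap, and the exact two-sided permutation test gave p = 0.1 (0.1 after adjustment over the 4 pairs compared), the smallest that 3 arrays against 3 allow, so no pair could pass a threshold of 0.05. For Cd14 and Tlr4 the p was 0.2 when any day 1 array was left out, where 2 arrays against 3 allow 0.1. A further 2 planned pairs, Irak3 with Irak2 and Myd88 with Ticam2, lacked a measured partner.

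Among the other receptors, Tlr2 and Tlr7 rose and Tlr3 fell. Tlr2, the lipoprotein receptor, had 6.89, 7.13 and 7.23 on day 1, against 5.42, 5.31 and 5.26 on day 0. The day 1 arrays were more spread than the day 0 arrays but all were higher, by 1.75 ± 0.10 (SE), or 3.37-fold (adjusted p = 3.32e-06). Tlr7, the receptor for single-stranded RNA, had 6.65, 6.84 and 7.06 on day 1, against 6.22, 6.23 and 6.05 on day 0. The groups were apart by 0.42 log2 units, as much as the range of 0.42 among the day 1 arrays themselves. Its change was 0.69 ± 0.11 (SE), or 1.61-fold (adjusted p = 0.00124), and it did not pass when tested against a change of 1.5-fold (adjusted p = 1). The mean values of Tlr2 and Tlr7 lay under the median of all genes, where log2 array values tend to understate fold changes.

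Tlr3, the receptor for double-stranded RNA, had 7.45, 7.81 and 7.51 on day 1, against 8.23, 8.21 and 8.15 on day 0. The day 1 arrays were all lower, with replicate 2 nearest to the day 0 arrays. The change was -0.61 ± 0.10 (SE), a level 0.656 times that of day 0 (adjusted p = 0.00122). It missed the threshold in an unmoderated unequal-variance test (adjusted p = 0.0682) and when tested against a 1.5-fold change (adjusted p = 1). The per-array difference between Tlr2 and Tlr3 averaged -0.50 ± 0.20 on day 1 and -2.87 ± 0.05 on day 0 (SD, n = 3 each), a shift of 2.36 ± 0.12 (SE). For Tlr7 and Tlr3, both of the endosome, it averaged -0.74 ± 0.27 on day 1 and -2.03 ± 0.06 on day 0, a shift of 1.30 ± 0.16 (SE). In both pairs the days did not overlap (exact permutation p = 0.1, the smallest possible, and 0.1 adjusted).

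Both measured genes for signalling proteins behind the receptors rose. Myd88, the adaptor shared with interleukin-1 receptors, had 9.73, 9.71 and 9.78 on day 1, against 7.98, 8.07 and 7.88 on day 0. Its day 1 arrays lay within 0.07 log2 units, the tightest of the 8 genes, and all were above day 0. The change was 1.77 ± 0.07 (SE), or 3.40-fold (adjusted p = 5.68e-07). Irak3, the inhibitory family member, had 8.79, 8.74 and 8.64 on day 1, against 7.86, 7.82 and 7.71 on day 0. The groups were apart by 0.78 log2 units, and the change was 0.92 ± 0.07 (SE), or 1.90-fold (adjusted p = 1.92e-05). The difference in change between Myd88 and Irak3 was not tested.

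The days did not overlap for any of the 8 genes, which was also the case for 56.9% of all genes. Day 1 lay above day 0 in 7 of the 8 and in 31.4% of all genes, and below it in 1 of the 8 and in 25.5%. Leaving out each array in turn left 8 of 8 past the threshold. Set against the whole table, the changes of Myd88 and Tlr2 exceeded those of 98.8% of genes, Cd14 98.6%, Tlr4 98.2%, Irak3 95.0% and Tlr7 91.5%. That of Tlr3 exceeded 7.6%.

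**Figure D2:**
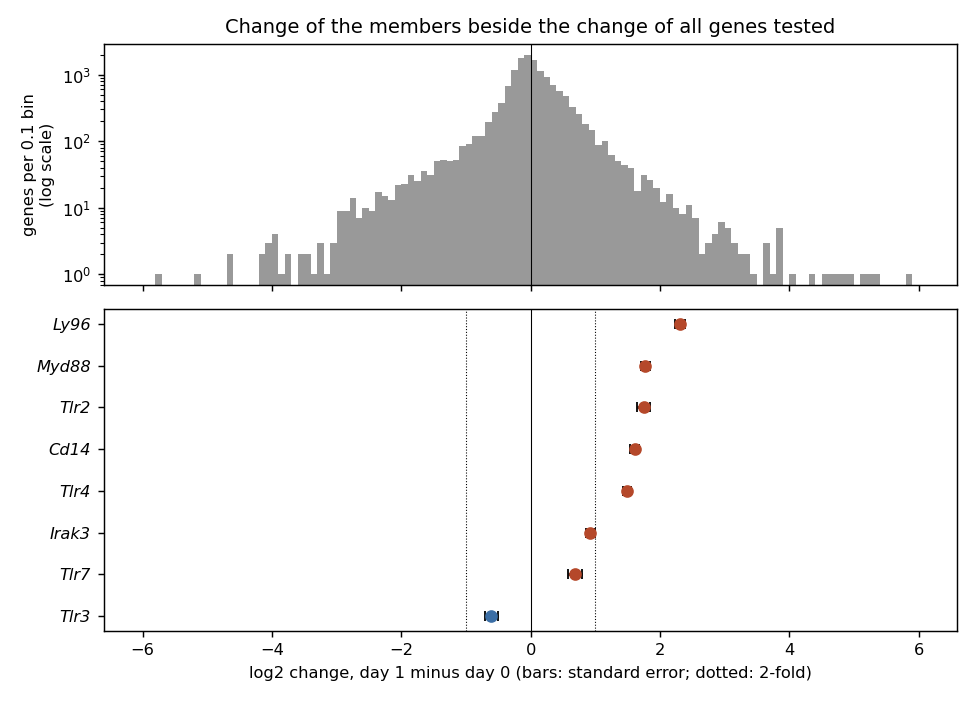
Log2 change (day 1 minus day 0) of all 14324 genes as a histogram with a log count axis (top) and of the 8 genes as points with standard errors (bottom). Ly96, Myd88, Tlr2, Cd14 and Tlr4 lie beyond the dotted line for a 2-fold rise, Irak3 and Tlr7 between it and 0, and Tlr3 at -0.61.

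The rest of the pathway was described through 9 lists, in which 97 of 115 distinct genes were measured, 54 of them (55.7%) higher and 13 (13.4%) lower past the threshold, where 27.6% of all genes were higher and 20.7% lower. The lists were not tested as sets, and the counts below are to be read against these shares of all genes. Other Toll-like receptors were measured in 2 of 9 cases, and both fell. Tlr6, which pairs with Tlr2, had 5.49, 5.69 and 5.70 on day 1, against 6.16, 6.02 and 6.29 on day 0. This change of -0.53 ± 0.09 (SE, adjusted p = 0.00189) ran opposite to that of Tlr2. Tlr12, a receptor for profilin in mice, fell by 0.28 ± 0.07 (SE, adjusted p = 0.0105).

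Genes for accessory and trafficking proteins rose in 7 of 10 cases and fell in 1, with a median log2 change of 0.53. Lbp, the plasma protein that delivers lipopolysaccharide to Cd14, had 13.97, 13.97 and 14.03 on day 1, against 11.00, 10.96 and 10.97 on day 0. These day 1 values are the highest on their arrays, so the 8.08-fold rise (3.01 ± 0.06, SE, adjusted p = 3.65e-08) was read at the top of the measured range. Unc93b1, the chaperone that carries Tlr3 and Tlr7 to endosomes, rose by 0.89 ± 0.06 (SE, adjusted p = 1.22e-05). The lysosomal transporter gene Slc15a3 rose by 0.75 ± 0.09 (SE). Cd36, a scavenger receptor that assists Tlr2 with Tlr6, fell by 0.66 ± 0.12 (SE, adjusted p = 0.00209).

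Of 19 signal transducers 10 were higher and 1 lower (median 0.24), shares of 52.6% and 5.26%, against 27.6% and 20.7% of all genes. In both directions together 57.9% were called, against 48.3% of all genes. Irf7, an interferon regulatory factor that is itself interferon-inducible, had the largest change at 1.84 ± 0.09 (SE, adjusted p = 1.61e-06). Irak4 and Irak1, the kinases that Myd88 recruits, rose by 0.89 ± 0.09 and 0.70 ± 0.07 (SE). Map3k8, a kinase that links the pathway to ERK, rose by 0.88 ± 0.11 (SE). Traf3, which serves the interferon branch, was the gene that fell (-0.34 ± 0.10, SE, adjusted p = 0.0206). That call was lost without day 0 replicate 1 or 3 and without day 1 replicate 1 or 2 (adjusted p = 0.0513 to 0.0656). Only 7 of the 19 passed in the unmoderated test.

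Of 13 negative regulators 4 were higher and 3 lower (median 0.08), shares of 30.8% and 23.1% that lie near those of all genes (27.6% and 20.7%). Il1rl1, the interleukin-33 receptor ST2, whose product has been described as a brake on Toll-like receptor signalling in mice, had 9.19, 9.22 and 9.20 on day 1, against 5.92, 5.89 and 5.85 on day 0. Its arrays of both days were tightly grouped around a 9.95-fold rise (3.31 ± 0.06, SE, adjusted p = 3.28e-08). The transcription factor gene Atf3 fell by 2.54 ± 0.06 (SE), the signalling suppressor gene Socs1 by 0.94 ± 0.11 and the mRNA decay factor gene Zfp36 by 0.78 ± 0.09. Of 6 interleukin-1 family receptors, most of which also signal through Myd88, 3 were higher and 0 lower, and 3 called of 6 lies near the 48.3% of all genes. Besides Il1rl1, these were the interleukin-1 receptor gene Il1r1 (2.74 ± 0.06, SE) and the shared chain gene Il1rap (0.43 ± 0.07, SE).

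Genes for proteins reported as endogenous ligands showed no common direction, with 3 of 8 higher and 3 lower (median -0.01). Only 1 was lower without day 0 replicate 1 or 3, or without day 1 replicate 2 or 3. The fibronectin gene Fn1 rose by 1.13 ± 0.06 (SE), the decorin gene Dcn by 0.56 ± 0.07 and the mitochondrial chaperone gene Hspd1 by 0.42 ± 0.06, while the versican gene Vcan fell by 0.81 ± 0.06. S100a8 had 2.52, 2.53 and 2.63 on day 1, against 2.46, 2.62 and 2.63 on day 0 and was dim on every array.

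Genes known as targets of the pathway were higher in most cases, although these genes also answer to many other signals. Of 19 NF-kappaB type targets 13 rose, 10 of them at least 2-fold, and 1 fell (median 1.03), where 27.6% of all genes rose and 4.13% rose at least 2-fold. Day 1 replicate 3 was the highest day 1 array for 18 of the 19, as it was for 29.2% of all genes and for 5 of the 8 Toll-like receptor and adaptor genes. The mean log2 value of the list was 7.38, 7.38 and 7.85 on the day 1 arrays, against 6.46, 6.45 and 6.50 on the day 0 arrays. Without that array 13 still rose, 9 of them at least 2-fold, and the median was 0.84. The unmoderated test on all arrays called 9 of the 19 higher and 1 lower. Ccl2, a monocyte attractant, had 11.09, 11.12 and 11.43 on day 1, against 7.68, 7.18 and 7.07 on day 0, a rise of 3.90 ± 0.16 (SE, adjusted p = 8.44e-07). Il6 had 5.71, 5.65 and 7.38 on day 1, against 3.18, 3.44 and 3.24 on day 0. Its change of 2.96 ± 0.42 (SE, adjusted p = 5.84e-04) rested on unequal day 1 arrays, with replicate 3 well above the others. It was 2.39 without that array, and the call was lost in the unmoderated test (adjusted p = 0.0789). The chemokine gene Ccl3 rose by 2.59 ± 0.21 (SE), and the cyclooxygenase gene Ptgs2 fell by 2.30 ± 0.11 (SE).

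Of 16 interferon type targets 13 rose, 12 of them at least 2-fold, while 1 was lower (median 1.70, and 1.68 without day 1 replicate 3), against 27.6%, 4.13% and 20.7% of all genes. In the unmoderated test 11 of the 16 were called higher and 0 lower. The antiviral genes Rsad2 (3.66 ± 0.19, SE), Ifit3 (3.25 ± 0.22) and Mx1 (2.40 ± 0.12) and the chemokine gene Cxcl10 (2.52 ± 0.29) changed most. Day 0 replicate 3 was the lowest day 0 array for each of these 4 genes, with Ifit3 at 8.59, 8.51 and 8.61 on day 1, against 5.41, 5.79 and 4.76 on day 0. Ifnb1, the interferon beta gene, had 3.67, 3.61 and 3.75 on day 1, against 3.98, 4.27 and 4.29 on day 0. It was dim and lower on day 1 (-0.50 ± 0.09, SE, adjusted p = 0.00283, and 0.0658 in the unmoderated test). Of 7 genes of cytosolic sensing, the adaptor gene Mavs among them, 3 were higher and 1, Mavs, lower (median 0.10). The shares of 42.9% and 14.3% stand against 27.6% and 20.7% of all genes, and 57.1% called against 48.3%. Dhx58 and Ifih1, of the RNA helicase family, rose by 0.84 ± 0.09 and 0.39 ± 0.09 (SE), and Nod1, a sensor of bacterial cell wall fragments, by 0.78 ± 0.09. The Ifih1 call was lost in the unmoderated test (adjusted p = 0.0609). Mavs, the adaptor of the helicases, was at -0.22 ± 0.07 (SE, adjusted p = 0.0404), a call lost whichever array was left out (adjusted p = 0.0511 to 0.121).

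**Figure D3:**
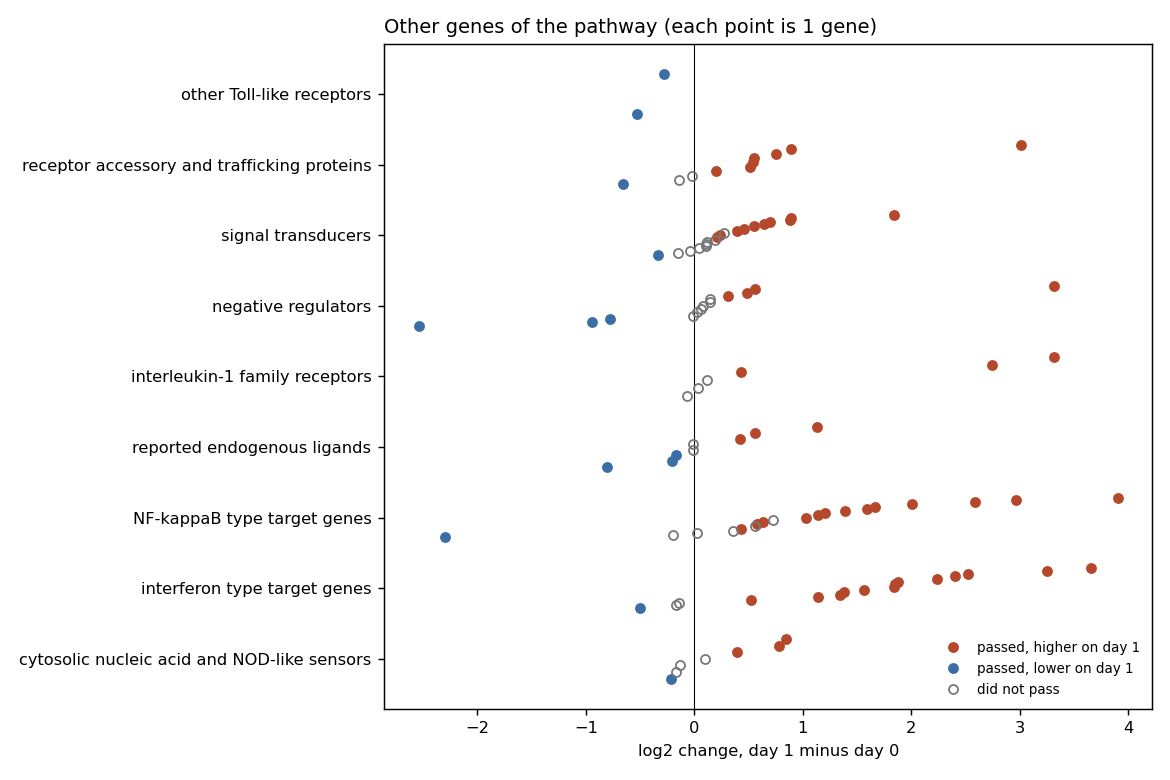
Log2 change (day 1 minus day 0) of each measured gene in the 9 pathway lists. Each point is 1 gene, red where it passed and was higher on day 1, blue where it passed and was lower, and open where it did not pass. Interferon type targets (median 1.70) and NF-kappaB type targets (median 1.03) lie furthest to the right.

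Markers of the cell types in the wall were set beside these changes. Of 17 macrophage markers, Cd14 not counted, 6 were higher and 4 lower (median 0.08, and -0.06 without day 1 replicate 3). Their shares of 35.3% and 23.5% lie near the 27.6% and 20.7% of all genes, against which the other marker counts are to be read too. Their mean log2 value lay at 7.84 to 8.0 on the day 1 arrays and 7.81 to 7.89 on the day 0 arrays. Cd68, a lysosomal protein of macrophages, rose by 1.70 ± 0.06 (SE), while Lyve1 and Cx3cr1, known from resident macrophages, fell by 2.05 ± 0.08 and 1.07 ± 0.09. The panleukocyte gene Ptprc was at 0.45 ± 0.11 (SE, adjusted p = 0.0126) and Csf1r, the receptor of macrophage growth factor, at -0.46 ± 0.08 (adjusted p = 0.00151). Ptprc and Csf1r were chosen for mention after their values were seen.

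Neutrophil markers passed in 0 of 11 cases by limma, with mean log2 values of 4.12 to 4.25 on day 1 and 4.30 to 4.44 on day 0. At an unadjusted p under 0.05, 3 of the 11 passed, and 0 of 11 passed in the unmoderated test. Fpr1 was at -0.38 ± 0.14 (SE, adjusted p = 0.0556) and Retnlg at -0.35 ± 0.18 (adjusted p = 0.155). With all 6 arrays, Fpr1 was called by limma with an intensity trend and a robust prior (adjusted p = 0.0336). It also passed without day 1 replicate 3 (adjusted p = 0.0073), and Retnlg without day 0 replicate 3 (adjusted p = 0.0355) or day 1 replicate 1 (adjusted p = 0.0483). Dendritic cell markers fell in 1 of 6 cases (Zbtb46, -0.51 ± 0.09, SE). Lymphocyte markers fell in 2 of 9 (Cd2, -0.55 ± 0.06, and Cd4, -0.52 ± 0.08), and 0 rose in either list. Cd4 averaged 8.77 on day 0, while Cd3e, Cd3d and Cd3g averaged 4.2, 4.31 and 3.04 and did not pass. Which cells carried the Cd4 signal was not tested. Mast cell markers rose in 1 of 8 cases, the receptor gene Kit (1.65 ± 0.07, SE), and fell in 2, Cpa3 (-0.78 ± 0.15) and Mcpt1 (-0.58 ± 0.18). The Cpa3 call was lost in the unmoderated test (adjusted p = 0.067). Mcpt1 overlapped between the days, and its call was lost when any of 4 arrays was left out (adjusted p = 0.0665 to 0.0893).

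Of 7 endothelial markers 5 were higher and 2 lower (median 0.34), or 3 higher and 2 lower without day 1 replicate 3, with Egfl7 at 0.87 ± 0.10, Cdh5 at 0.78 ± 0.11 and Esam at -0.65 ± 0.08 (SE). The Cdh5 call was lost in the unmoderated test (adjusted p = 0.067). Of 9 fibroblast markers 3 were higher and 6 lower, with Pdgfra at 1.85 ± 0.07, Pi16 at -1.94 ± 0.09 and Cd34 at -1.46 ± 0.08 (SE). All 9 measured smooth muscle markers fell, by at least 2-fold each (median -3.04). Their mean log2 value was 8.11 to 8.23 on day 1 and 11.41 to 11.51 on day 0, so the defining genes of the labelled tissue were bright on day 0, and Cnn1 fell by 5.73 ± 0.07 (SE). Of 8 adipocyte markers 6 were lower and 1 higher (median -0.74), with Lpl at -1.51 ± 0.11, Adipoq at -1.08 ± 0.11 and Fabp4 at -0.83 ± 0.07 (SE). The part of these shifts in the changes of the Toll-like receptor genes was not tested.

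**Figure D4:**
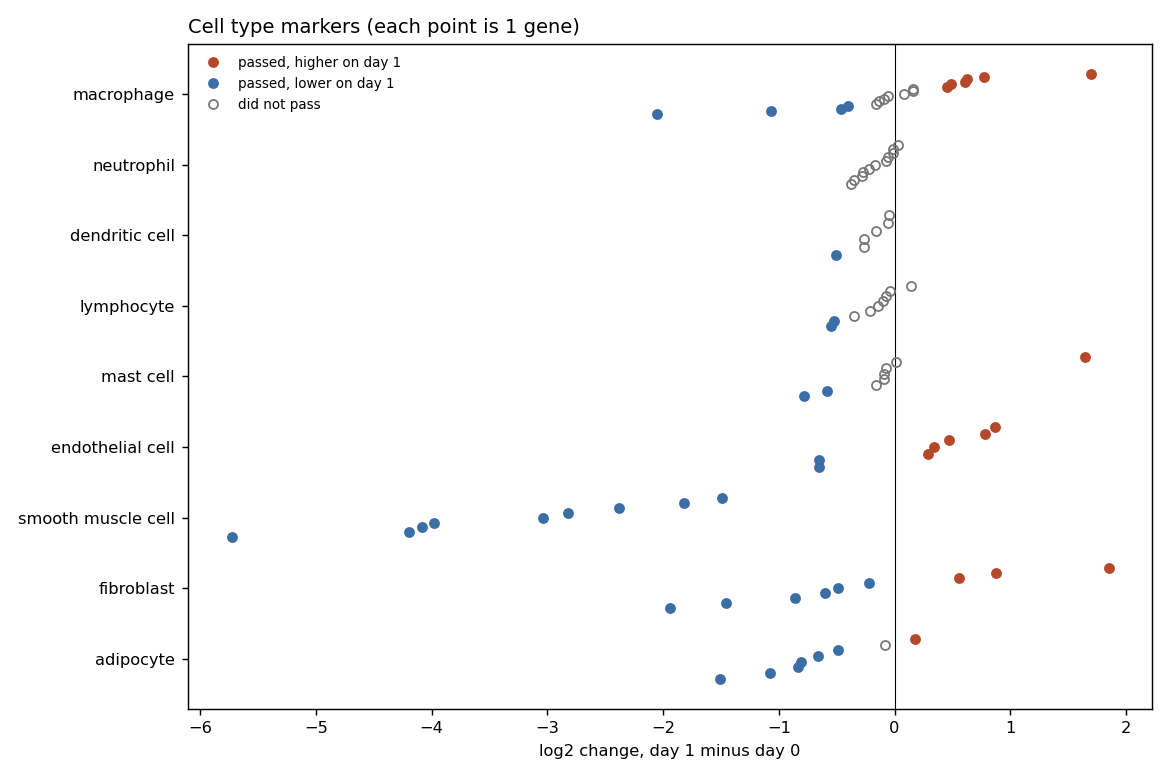
Log2 change (day 1 minus day 0) of cell type markers, 1 point per gene, with the colours of the pathway plot. Macrophage markers lie on both sides of 0 (6 higher, 4 lower, 7 that did not pass), no neutrophil marker passed, and all 9 smooth muscle markers lie below -1.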

How the data were processed

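Gene expression was measured in 3 arrays of day 1 cultures and 3 of day 0 rings. Per the labels, the whole-transcript sense protocol of Affymetrix turned 200 ng of total RNA into biotinylated target. The authors deposited log2 expression values, 1 per row and array, for 27342 rows, with a maximum of 14.16 from which the scale was read. Limma is named in the submitters' processing notes. Background, scaling and summary of the probes, and the genome build, were not given in the sources used here. Medians of the arrays were 5.87 to 5.95, and the values were used unscaled; normalization by the authors that equalises arrays would set changes relative to the bulk of genes. The number of arrays limits the precision.

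Symbols came from the array annotation, updated through gene IDs to GRCr8. Of the rows, 15097 had 1 symbol, 323 several and 11922 none. Where a gene had several rows, as 499 did, the row with the highest mean was kept, leaving 14324 genes. The days were compared in R 4.3.3 with limma 3.58.1 (two-sided, moderated, without trend, block or filter on dim genes), and p-values were adjusted by Benjamini-Hochberg across all genes, with calls made at 0.05. The code of the fit was run on simulated arrays with known changes in a small part of the genes. Far more genes were called in the real arrays, so that run does not test the calls given here. Pairs of genes were compared on per-array differences by an exact permutation test. Python 3.11.15 with pandas 2.3.3, numpy 2.4.6, scipy 1.17.1 and matplotlib 3.10.9 prepared tables and figures, and promoter windows came from RefSeq tables of GRCr8.

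The members and lists were chosen with earlier results of these data known. Named genes were all members and, of each pathway list, up to 4 with the largest change past the threshold plus the largest against the majority. Of each marker list up to 3 were named, and where none passed the 2 largest changes. Alternatives covered the scaling (median centring or quantiles), filters on the dimmest 25% of genes or on those under the median, the choice of row (mean, most variable, or all rows tested), the variance model (robust trend, weighted arrays, or an unmoderated test with unequal variances), a test against a 1.5-fold change (treat), a replicate block, and leaving out each array.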

Additional observations from a re-analysis of the deposited data

How the results depend on the processing

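All 8 genes kept their direction in each of the 18 alternatives that measured them, and all 8 passed whichever array was left out; without genes under the median mean, 6 of 6 passed, since Tlr2 and Tlr7 were then not tested. The changes ranged from 2.26 to 2.37 for Ly96, 1.66 to 1.82 for Myd88, 1.68 to 1.85 for Tlr2, 1.52 to 1.66 for Cd14, 1.40 to 1.54 for Tlr4, 0.83 to 0.97 for Irak3, 0.58 to 0.79 for Tlr7 and -0.72 to -0.54 for Tlr3. Tlr3 (-0.61) missed the threshold in the unmoderated test (adjusted p = 0.0682), and Tlr3 (-0.61) and Tlr7 (0.69) with treat (adjusted p = 1 each). The 4 pair differences kept their direction in all 10 alternatives run.

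With treat, 1550 genes were called in place of 6915, and calls numbered 0 for other Toll-like receptors, 2 for accessory proteins, 1 for signal transducers, 2 for negative regulators, 2 for endogenous ligands and 0 for cytosolic sensors. The unmoderated test called 7 signal transducers, 2 cytosolic sensors, 10 NF-kappaB type targets and 11 interferon type targets. Without genes under the median mean, calls numbered 0 of 0 other Toll-like receptors, 8 of 9 NF-kappaB type targets and 9 of 9 interferon type targets, because fewer members were tested. For the lost calls under treat and the unmoderated test the cause was not tested. Of 1003 values of 57 other named genes under the alternatives, 51 lost and 4 gained a call and 0 reversed.

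Whether same-numbered arrays of the days were paired is not stated. Their deviations correlated at 0.01, 0.02 and 0.04, against -0.05 to 0.04 for arrays with other numbers. Deviations from means of 3 pools cannot show whether animals or processing were shared. With the replicate block 6686 genes and 8 of the 8 members were called. Means under the median of all genes limit Tlr2 and Tlr7, and also Irak4, Kit and Cx3cr1. Dimmer than both Tlr2 and Tlr7 were Tlr6, Tlr12, Dhx58, Adipoq, Zbtb46, Cd2, Il6, Fpr1, Cd36, Retnlg, Cpa3, Ifnb1, Mcpt1 and S100a8. The 3 arrays per day limit all values.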
